A study of Homo sapiens with 2 samples.

Results

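MYC, MAX and the proteins that share MAX as a partner were examined at the transcript level in 22Rv1, a human prostate cancer cell line that grows without androgen, after knockdown of EIF3F, a subunit of translation initiation factor eIF3. The 10 genes described here, MYC, MYCN, MYCL, MAX, MXD3, MXD4, MXI1, MNT, MLX and MGA, were taken by name from a table of 57326 gene symbols, and all 10 were listed. One group carried a vector control (shCON) and the other a short hairpin RNA against EIF3F (shEIF3F), and both groups were 22Rv1 cells. Total RNA was sequenced from 1 library per group. The differences below therefore lack replication, and they carry no p-value and no error. Effects that the 1 hairpin has beside the loss of EIF3F cannot be told apart here, and whether the cells were a pool or 1 clone is not given in the sources used here.

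MYC and its relatives MYCN and MYCL are transcription factors that bind DNA as dimers with MAX, at a short sequence called the E-box (CACGTG), and raise the transcription of genes for growth, ribosome production and cell division. The MXD proteins, MXI1, MNT and MGA also need MAX to bind the same sequence, and the MXD proteins, MXI1 and MNT recruit the SIN3 corepressor, so that they oppose MYC. MLX stands in a parallel branch and pairs with MLXIP (MondoA) and MLXIPL (ChREBP), which respond to glucose metabolites.

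Levels are given as TPM, which corrects for transcript length and for library size, so that genes can be compared with each other. The number of reads is lost in TPM, and the depth is therefore unknown. The log2 ratio is log2((shEIF3F TPM + 1) / (shCON TPM + 1)), a scale that understates differences of genes near 1 TPM. A gene was tested against a fixed rule of size where its mean over both libraries was 1 TPM or more. It was counted as lower at a log2 ratio of -1 or less and as higher at 1 or more, that is, by at least 2-fold on this scale. EIF3F stood at 991 TPM in shCON and 17.0 with shEIF3F (log2 ratio -5.78), in the direction of the labels. Of 13311 genes tested, 25.5% were lower and 8.44% higher, and their median log2 ratio was -0.36. With ratios centred on that median these shares were 16.0% and 14.7%. Values relative to all genes below are centred in this way. The luminal markers KRT8 (301 and 347 TPM), KRT18 (173 and 336 TPM) and HOXB13 (105 and 44.4 TPM) were present in both libraries. Of the markers of other cells, the 4 endothelial genes summed to 0.05 TPM or less in each library. The leukocyte marker PTPRC was at 0.11 and 0.03 TPM. The 5 fibroblast genes summed to 39.9 and 26.9 TPM, most of it LUM and DCN, with PDGFRA listed at 0. The part of other cells in the values below was not tested.

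Of the 10 genes, 9 had a mean of 1 TPM or more, and 3 of these were lower in shEIF3F by the 2-fold rule, a share of 33.3% against 25.5% of all genes. They were MYC and the antagonists MXD3 and MNT. None of the 9 was higher, against 8.44% of all genes. Their median log2 ratio was -0.88 (-0.52 relative to all genes). All 9 log2 ratios were below 0 as deposited, from -3.51 to -0.19, and 8 were below 0 after centring, where MGA was at 0.16. With the trend on transcript GC content removed, by centring ratios within 20 bins of it, 2 of the 9 were lower, MYC and MXD3, against 13.9% of all genes. All 8 markers of proliferating cells were also lower in shEIF3F, with a median of -3.77 and a summed level of 745 TPM in shCON and 87.5 with shEIF3F. Their part in the MYC, MXD3 and target values was not tested. In bulk RNA, fewer cells that express a gene and less RNA per cell cannot be told apart.

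**Figure D1:**
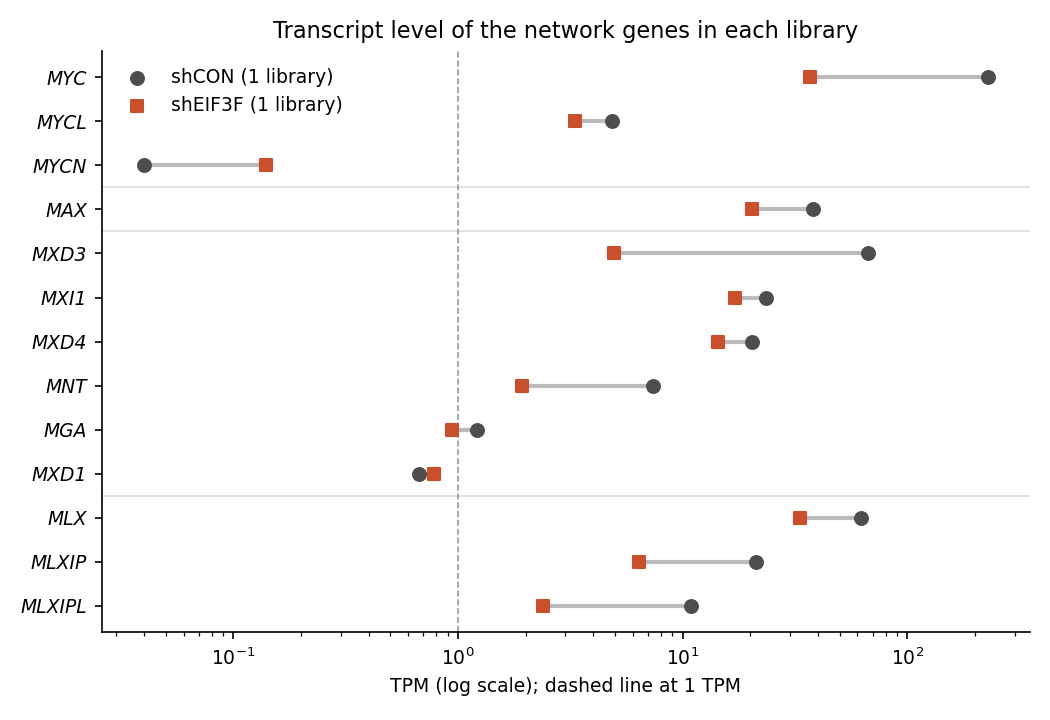
TPM (horizontal log axis) of the 10 genes and of MXD1, MLXIP and MLXIPL in shCON (circles) and shEIF3F (squares), 1 library each, grouped from top to bottom as MYC family, MAX, MAX-binding antagonists, and MLX with its partners. MXD3 has the longest bar toward lower values, from 66.7 to 4.95 TPM, and MXI1 and MXD4 have short ones.

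Among the 3 MYC family genes, MYC was by far the most abundant. MYC stood at 228 TPM in shCON and 36.7 with shEIF3F, which is 16.1% of control (log2 ratio -2.60, or -2.24 relative to all genes). Its place in the library, given as the percentage of tested genes with a lower TPM, went from 95.7% to 84.5%, a measure that library scaling does not affect. MYCL, first found in lung cancer, was at 4.84 and 3.30 TPM (log2 ratio -0.44), which is close to the median of all genes, and 0.04 with the GC trend removed. Its place was 35.7% and 33.6%. MYCN, the family member known from neuroblastoma and neuroendocrine prostate cancer, was at 0.04 and 0.14 TPM and did not reach the 1 TPM minimum, so it was not tested and no ratio is read from it. The summed TPM of the 3 genes was 232 in shCON and 40.2 in shEIF3F, so MYC made up nearly all of the family in both libraries.

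Genes with a pair of levels most like that of MYC were sought by the distance between log2(TPM + 1) values over the 2 libraries, with no further samples to separate them. The 5 nearest were the RNA helicase DDX39A at 224 and 39.7 TPM, the chromatin protein HMGB2 at 257 and 34.6 TPM, the RNA-binding protein HNRNPA0 at 247 and 41.0 TPM, the mitochondrial protein NIPSNAP1 at 236 and 31.9 TPM, and GCHFR, a regulator of tetrahydrobiopterin synthesis, at 228 and 31.6 TPM.

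MAX, the shared partner, was at 37.99 TPM in shCON and 20.3 with shEIF3F (log2 ratio -0.88, or -0.52 relative to all genes). It was within 2-fold by the rule used. Its place among tested genes was 79.7% in shCON and 74.7% in shEIF3F. The transcript of the obligate partner thus differed less between the libraries than that of MYC.

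The antagonists differed from each other in the size of their difference. MXD3, the MXD family member known to be expressed in proliferating cells, was at 66.7 TPM in shCON and 4.95 with shEIF3F, which is 7.42% of control (log2 ratio -3.51, or -3.15 relative to all genes). Only 1.05% of tested genes had a lower log2 ratio than MXD3. Its place among tested genes went from 87.1% to 43.6%. MNT, a broadly expressed antagonist, was at 7.37 and 1.93 TPM (log2 ratio -1.51), with places of 45.5% and 21.0%. The MNT transcript is rich in G and C (61.4%), and its ratio was -0.75, within 2-fold, with the GC trend removed.

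MXD4 and MXI1, the MXD members linked to resting and differentiating cells, differed little. MXD4 was at 20.3 and 14.3 TPM (log2 ratio -0.48) and MXI1 at 23.5 and 17.0 TPM (-0.44). Relative to all genes both were near 0, at -0.12 and -0.08. With the GC trend removed the sign of MXD4 turned, to 0.44, and MXI1 was at -0.34. Their places among tested genes were 68.4% and 67.8% for MXD4, and 71.2% and 71.5% for MXI1. MGA, a large protein that carries a T-box domain beside its MAX-binding domain, was at 1.22 and 0.94 TPM (-0.19), just above the 1 TPM minimum in the mean. MXD1, which is not among the 10 genes, was at 0.67 and 0.78 TPM and was not tested.

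Shared exons limit some of these values, since the use of strand in counting is not given in the sources used here. In the GENCODE annotation, 22.5% of the MXD3 exon bases overlap PRELID1 on the opposite strand, a gene at 483 and 354 TPM. A further overlap of 17.97% lies with RAB24 on the same strand, at 67.1 and 61.7 TPM. Neither neighbour was lower by the 2-fold rule, whereas MXD3 was. For MNT, 12.2% of exon bases overlap the antisense transcript AC006435.1, at 1.62 and 1.86 TPM. For MLX, 18.1% overlap PSMC3IP on the opposite strand, which was at 20.8 TPM in shCON and 0.97 with shEIF3F and thus differed in the same direction as MLX. The part of these reads in the MLX value was not tested. MYC shared no exon base with another gene of the annotation.

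MLX was at 62.4 TPM in shCON and 33.2 with shEIF3F (log2 ratio -0.89, or -0.53 relative to all genes), within 2-fold. Both of its partners, which are not among the 10 genes, were lower by the 2-fold rule. The glucose-responsive factor MLXIPL was at 10.9 and 2.38 TPM (log2 ratio -1.82) and MLXIP at 21.2 and 6.41 TPM (-1.58). With the GC trend removed these were -0.90 and -0.84, within 2-fold.

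Promoter sequences were taken from RefSeq (build GRCh38.p14), which had entries for 9 of the 10 genes. The gene without an entry was MYC, so the MYC promoter was not searched for any motif. Each window runs from 250 bases before a listed start to 50 after it, and some genes have several. The E-box CACGTG, which reads the same on both strands, was found in 3 of the 9 genes, MNT, MXD4 and MLX, against 13.2% of the 9143 protein-coding genes tested that had a promoter entry. The log2 ratios of these 3 genes were -1.51, -0.48 and -0.89, so those with the motif did not share 1 size of difference. MXD3, with the lowest log2 ratio, had no CACGTG in its window. It held the variant E-box CACGCG (as CGCGTG on the strand shown), found in 23.2% of the same genes, overlapping the E2F-type sequence TTTCGCG, found in 2.88%. CACGCG was also found in MXI1 (log2 ratio -0.44) and MGA (-0.19), which differed far less than MXD3. TTTCGCG occurred in 1 other of the 9 genes, MYCN, which was hardly detected. The 3 windows with CACGTG and that of MXD3 are shown 5′ to 3′ from 250 bases before the start, up to the start, or 30 bases past it for MXD3, with CACGTG or the overlapping pair in capitals. A match describes the letters in the window, not a bound site.

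MNT (chr17:2401061-2401310, strand -): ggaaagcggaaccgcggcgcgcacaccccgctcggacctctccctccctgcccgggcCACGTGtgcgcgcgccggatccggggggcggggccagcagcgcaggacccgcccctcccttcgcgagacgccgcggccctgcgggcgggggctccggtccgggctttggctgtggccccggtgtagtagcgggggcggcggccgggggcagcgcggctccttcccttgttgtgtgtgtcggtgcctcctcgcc
MXD4 (chr4:2262110-2262359, strand -): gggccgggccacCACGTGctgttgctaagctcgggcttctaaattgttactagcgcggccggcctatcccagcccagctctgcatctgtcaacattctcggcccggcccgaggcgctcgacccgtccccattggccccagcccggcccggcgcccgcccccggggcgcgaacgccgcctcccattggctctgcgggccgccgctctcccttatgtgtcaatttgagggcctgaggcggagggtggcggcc
MLX (chr17:42566850-42567099, strand +): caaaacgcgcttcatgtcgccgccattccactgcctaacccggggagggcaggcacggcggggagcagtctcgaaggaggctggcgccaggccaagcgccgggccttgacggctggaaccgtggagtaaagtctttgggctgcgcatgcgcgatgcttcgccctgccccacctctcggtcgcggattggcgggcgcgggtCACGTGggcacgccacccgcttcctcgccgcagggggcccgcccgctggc
MXD3 (chr5:177312723-177313002, strand -): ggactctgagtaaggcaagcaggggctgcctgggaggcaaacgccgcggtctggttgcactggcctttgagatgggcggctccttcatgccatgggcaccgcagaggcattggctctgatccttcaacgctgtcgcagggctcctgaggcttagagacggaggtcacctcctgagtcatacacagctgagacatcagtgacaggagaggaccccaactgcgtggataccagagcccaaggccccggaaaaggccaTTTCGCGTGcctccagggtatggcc

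**Figure D2:**
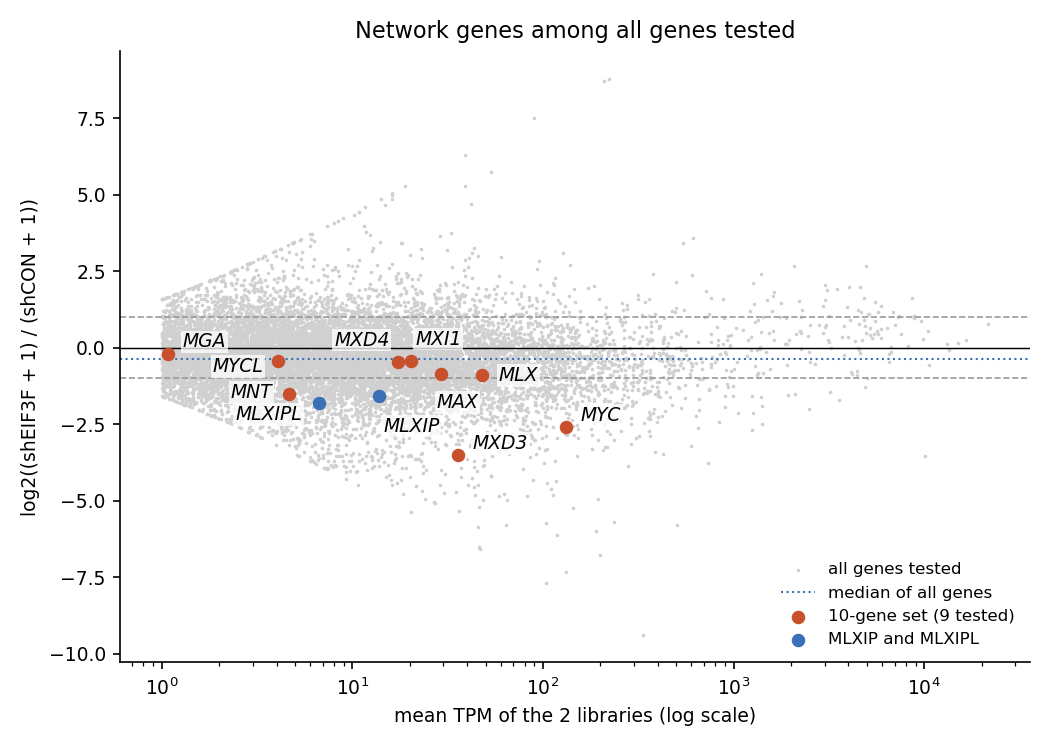
Log2 ratio (vertical axis) against mean TPM of both libraries (horizontal log axis) for the 13311 genes tested (grey), the 9 tested network genes (orange) and MLXIP and MLXIPL (blue), with dashed lines at -1 and 1 and a dotted line at the median of -0.36. MXD3 (-3.51) and MYC (-2.60) lie well below the line at -1, and MXD4, MXI1 and MYCL lie close to the median.

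A ratio of 2 TPM values from the same library does not depend on how the library total was scaled, so the make-up of the network was also compared within each library. These are ratios of transcripts from which the GC trend was not removed, and protein was not measured. The ratio of MYC to MAX was 5.99 in shCON and 1.81 in shEIF3F, a 3.30-fold difference. The 3 MYC family genes together had 1.94 times the summed TPM of the 6 antagonists (MXD1, MXD3, MXD4, MXI1, MNT and MGA) in shCON, and 1.00 times in shEIF3F. MXD3 weighs heavily in that sum. Without it, an alternative added after the data were seen, the ratio was 4.38 in shCON and 1.15 in shEIF3F.

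The order of the antagonists was not the same in the 2 libraries. MXD3 was the most abundant antagonist in shCON, with 3.28 times the TPM of MXD4, and stood at 0.345 times MXD4 in shEIF3F, where MXI1 and MXD4 led. The summed antagonists were 3.15 times MAX in shCON and 1.97 times in shEIF3F. Without MXD3 these values were 1.40 and 1.73, so the remaining antagonists stood higher against MAX in shEIF3F. MXD4 and MXI1 together were 1.15 times MAX in shCON and 1.55 times in shEIF3F. MLX kept its ratio to MAX, at 1.64 in both libraries, while MLXIP and MLXIPL together went from 0.515 to 0.265 times MLX. With the GC trend removed, the log2 ratios of these 3 genes lay closer together, at -0.61 for MLX, -0.84 for MLXIP and -0.90 for MLXIPL.

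Over the 13 network genes, summed TPM was 485 in shCON and 142 in shEIF3F, 29.4% of the control level. The MYC family held 47.9% of that sum in shCON and 28.2% in shEIF3F. The 6 antagonists held 24.7% and 28.1%, and MAX 7.84% and 14.2%. MLX with its partners held 19.5% and 29.5%. MYC ranked first of the 13 in both libraries, MXD3 went from rank 2 to rank 7, and MLX from rank 3 to rank 2.

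**Figure D3:**
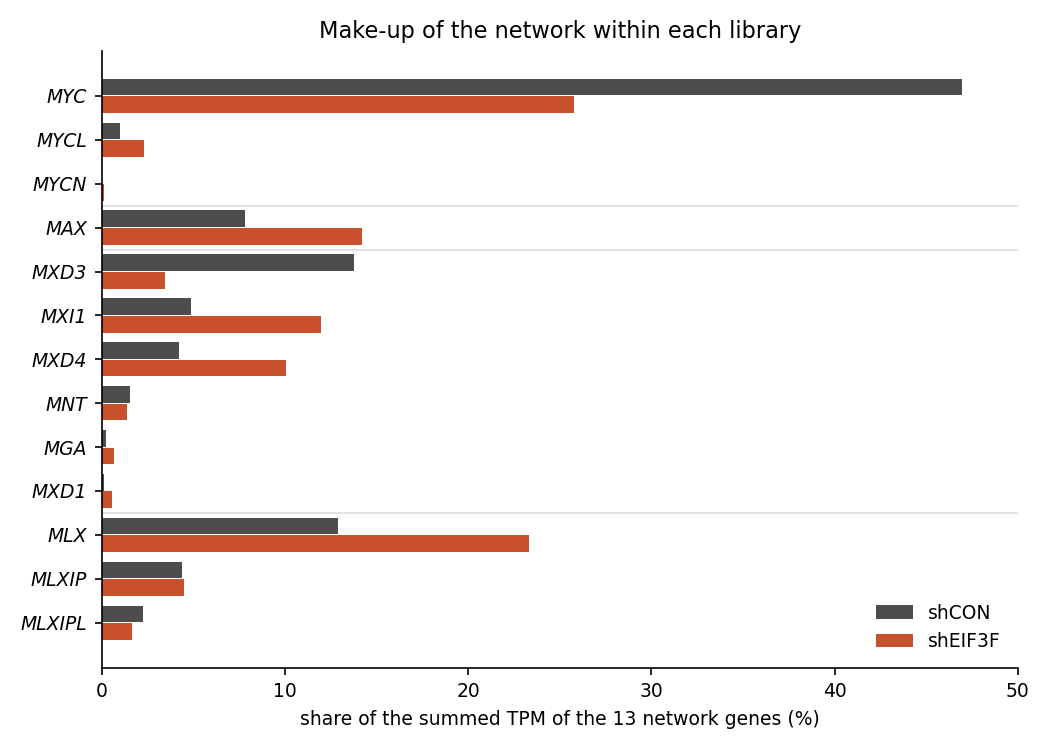
Share of the summed TPM of 13 network genes (horizontal axis, percent) held by each gene within shCON (dark bars) and shEIF3F (orange bars), 1 library each. MYC takes 46.9% in shCON and 25.8% in shEIF3F and MXD3 13.8% and 3.48%, while the shares of MAX, MXI1, MXD4 and MLX are larger in shEIF3F.

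Genes that MYC is known to raise were examined next, as a list of 57 that leaves out MYC itself. Of 56 tested, 25 were lower (44.6%, against 25.5% of all genes) and 1 higher (1.79%, against 8.44%). Their median was -0.94 (-0.58 relative to all genes), and members ranged from -4.99 to 1.14. The lowest were the mitotic kinase PLK1 at 94.8 and 2.02 TPM (log2 ratio -4.99), the replicative helicase subunit MCM5 at 81.5 and 5.36 TPM (-3.70) and the G1 kinase CDK4 at 418 and 51.0 TPM (-3.01). The higher gene was NDUFAF4, an assembly factor of respiratory complex I, at 13.7 and 31.4 TPM (1.14). After centring 19 were lower, against 16.0% of all genes, and within GC bins 13, against 13.9%.

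The roles within that list, grouped by known function, differed in their medians. All 5 tested genes of DNA replication and cell division were lower, against 25.5% of all genes, with a median of -3.01. Of 27 genes of the nucleolus and ribosome assembly, 14 were lower (51.9%, against 25.5% of all genes) and none higher (against 8.44%). Their median was -1.11. The lower count in this group was 8 after centring, against 16.0% of all genes, and 6 within GC bins, against 13.9%. In that group TCOF1, a cofactor of ribosomal RNA synthesis, was at 33.4 and 5.50 TPM (log2 ratio -2.40), while the methyltransferase NOP2 was at 43.4 and 48.9 TPM (0.17). Of 8 mitochondrial genes 1 was lower (12.5%, against 25.5% of all genes) and 1 higher (12.5%, against 8.44%). Their median was -0.60. Of 7 genes of metabolism and transport 3 were lower (42.9%, against 25.5% of all genes), with a median of -0.96. In GC bins 2 of these 7 were lower, against 13.9% of all genes, and 1 was higher, against 13.3%. Spermidine synthase SRM, a polyamine enzyme, was at 142 and 221 TPM (0.64), within 2-fold as deposited and after centring (0.99). SRM was the 1 higher gene of these 7 in GC bins (1.55). It was also past 2-fold with libraries rescaled without their most abundant genes (1.07). TCOF1, NOP2 and SRM were chosen after their values were seen. Of the remaining 9 genes 2 were lower (22.2%, near the share of all genes).

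**Figure D4:**
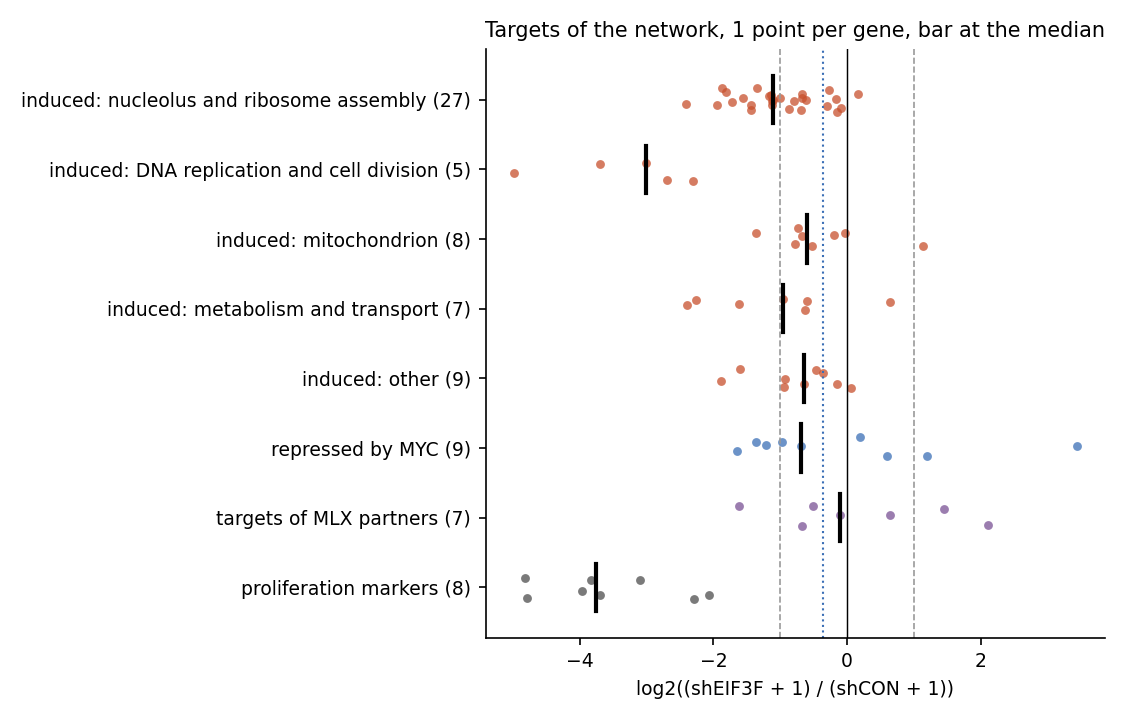
Log2 ratio (horizontal axis) of each tested target gene (1 point) by list and role, with the number of genes in brackets, a bar at each median, dashed lines at -1 and 1, and a dotted line at the median of all genes tested. The median of targets in DNA replication and cell division (-3.01) is closest to that of the proliferation markers (-3.77). Medians of the nucleolar (-1.11) and mitochondrial (-0.60) targets are nearer to 0. Single points overlap, since the lowest nucleolar target is at -2.40 and the highest replication and division target at -2.30.

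The E-box was common in the promoters of these targets, in 25 of the 46 with an entry (54.3%, against 13.2% of protein-coding genes tested). Targets with it had a somewhat lower median log2 ratio, a difference that was not tested. The median was -0.998 for the 25 with the motif and -0.79 for the 21 without. Lower genes numbered 12 (48.0%) with the motif and 8 (38.1%) without. Among all 9143 protein-coding genes with an entry, the medians were -0.47 for 1209 genes with the motif and -0.37 for 7934 without, and 28.5% and 25.2% were lower.

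Genes known to be repressed by MYC went both ways. Of 10 listed, 9 were tested, 2 were higher (22.2%, against 8.44% of all genes) and 3 lower (33.3%, against 25.5%), with a median of -0.68, or -0.33 relative to all genes and 0.37 within GC bins. The cell cycle inhibitor CDKN1A was at 90.5 and 989 TPM (log2 ratio 3.44) and the stress-response gene GADD45G at 3.43 and 9.13 TPM (1.19). GADD45G was within 2-fold with a pseudocount of 5. CDKN1A is also a known p53 target. CDKN1B, another inhibitor of the same kinases, was at 48.7 and 14.9 TPM (-1.64), NDRG2 at 34.8 and 12.9 TPM (-1.37) and CDKN1C at 11.7 and 4.46 TPM (-1.21). In GC bins NDRG2 (-0.89) and CDKN1C (-0.30) were within 2-fold, and CDKN1C was so after centring too (-0.86). The lower count in GC bins was thus 1, against 13.9% of all genes, and the higher count 2, against 13.3%. CDKN2B, at 0.07 and 0.86 TPM, was under the minimum.

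Targets of the MLX branch also went both ways. TXNIP, an inhibitor of glucose uptake that MLXIP is known to induce, was at 41.9 TPM in shCON and 184 with shEIF3F (log2 ratio 2.11), and the related arrestin ARRDC4 at 1.46 and 5.70 TPM (1.45). Both were thus higher in the library in which MLXIP was lower, though ARRDC4 was within 2-fold with a pseudocount of 5. Acetyl-CoA carboxylase ACACA, a fatty acid synthesis enzyme, was at 40.9 and 12.6 TPM (-1.62). By count, 2 of 7 were higher, against 8.44% of all genes, and 1 lower, against 25.5%. The other 4 of 7 tested genes were within 2-fold, and the median of all 7 was -0.11 (0.25 relative to all genes).

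Cofactors of both arms were mostly within 2-fold. Of 14 tested genes of the SIN3 corepressor, through which MXD proteins act, 2 were lower (14.3%, against 25.5% of all genes) and 1 higher (7.14%, against 8.44%), with a median of -0.79. The histone-binding subunit RBBP4 was at 124 and 46.0 TPM (log2 ratio -1.41), the scaffold SIN3B at 14.7 and 6.57 TPM (-1.05) and SAP18 at 65.6 and 141 TPM (1.09). SIN3B was within 2-fold after centring (-0.69), and neither RBBP4 nor SIN3B was lower once libraries were rescaled without their 100 most abundant genes. Of 10 genes of the repressive complex that MGA forms with L3MBTL2, 2 were lower (against 25.5% of all genes), the E2F partner TFDP1 at 64.3 and 21.6 TPM (-1.53) and WDR5 at 43.3 and 14.4 TPM (-1.53), with a median of -0.42. Among 15 MYC coactivators 6 were lower (40.0%, against 25.5% of all genes) and none higher (against 8.44%), with a median of -0.74. These included the ATPase RUVBL2 at 283 and 87.0 TPM (-1.69) and WDR5. With the GC trend removed 2 of these 15 were lower, a share close to the 13.9% of all genes. WDR5 (-1.05) was 1 of these, while RUVBL2 (-0.97) was within 2-fold. Of 16 genes that act on MYC protein turnover 6 were lower (37.5%, against 25.5%) and none higher (against 8.44%), with a median of -0.74. Besides PLK1, these included the kinase AURKA at 28.2 and 3.43 TPM (-2.72) and the ubiquitin ligase subunit SKP2 at 27.9 and 7.14 TPM (-1.83), both known to follow the cell cycle. FBXW7, the substrate receptor that marks MYC for degradation, was at 2.83 and 2.08 TPM (-0.31), chosen after its values were seen.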

How the data were processed

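RNA-seq values for 2 libraries of 22Rv1 cells, 1 in shCON and 1 in shEIF3F, were deposited by the authors as TPM per gene, rounded to 2 decimals. Per the submitters' processing notes, CASAVA and HISAT2 were used with hg19. No gene counter, annotation, strand setting or filter is given in the sources used here. Columns were matched to groups by the sample descriptions. Of 58884 entries, 27 with symbols turned into dates were left out, entries of 1 symbol were summed (each network gene had 1 entry), and small RNA genes were left out of the tests. Gene type, exon overlap and transcript GC content came from GENCODE release 29, a GRCh38 annotation, so coordinates are given only for RefSeq promoters of GRCh38.p14. Promoters were matched by symbol, or by a synonym belonging to 1 gene, for 80.9% of protein-coding genes tested. Motifs were searched on both strands, over all windows listed for a gene.

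A pseudocount of 1, a mean of 1 TPM or more and a log2 ratio of 1 were used as a rule of size, not a test. The 10 genes, all lists and the naming rule were chosen with earlier results of these data known. That rule took all 10 genes, MXD1, MLXIP, MLXIPL, EIF3F, KRT8, KRT18, HOXB13, the 5 genes nearest to MYC, and from each list up to 3 lowest and 3 highest past 2-fold. Some genes that it takes are not reported here. The roles within the list of induced targets were assigned after the network values were seen. Alternatives were pseudocounts of 0.1 and 5, no filter, a minimum of 5 TPM, centring, rescaling without the 100 most abundant genes, the most abundant entry per symbol and centring within 20 GC bins. Calculations were tested on simulated data and run in Python 3.11.15 with NumPy 2.4.6, pandas 2.3.3 and matplotlib 3.10.9.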

Additional observations from a re-analysis of the deposited data

How the results depend on the processing

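Of 223 alternative values, 204 kept their side of the 2-fold threshold or, for counts and within-library ratios, stayed within 1.5 times. Some of these could not change. With no filter, a minimum of 5 TPM or the most abundant entry, the log2 ratio of a gene with 1 entry stays the same. The tally therefore includes values that were fixed in advance. No ratio past 2-fold turned its sign. Among ratios within 2-fold the sign turned for MGA (0.16 after centring and 0.03 after rescaling) and, in GC bins, for MXD4 (0.44) and MYCL (0.04). The log2 ratios of MYC and MXD3 stayed at -1 or less under every alternative run. That of MNT was within 2-fold with a pseudocount of 5 (-0.84) and with ratios centred within GC bins (-0.75), as were MLXIP and MLXIPL in GC bins (-0.84 and -0.90). The count of lower induced targets was 13 in GC bins, against 25, and that of higher repressed targets was 1 with a pseudocount of 5, against 2. The ratio of the MYC family to antagonists in shCON was 4.38 without MXD3, against 1.94. Of the counts for cofactor, MLX target and other E-box factor lists, 12 moved by over 1.5 times. The cause was not tested. With 1 library per group no replicate could be left out, and unknown depth limits what low TPM values can show, MGA and MYCN most of all.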

Other observations

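Other basic helix-loop-helix zipper factors that bind E-boxes outside the MAX network were mostly lower as deposited. Of 7 tested, 4 were lower by at least 2-fold (57.1%, against 25.5% of all genes) and none higher (against 8.44%), with a median log2 ratio of -1.03. The lipogenic factor SREBF1 was at 122 TPM in shCON and 16.5 with shEIF3F (-2.81), TFAP4, a known MYC target, at 33.8 and 8.38 TPM (-1.89), and TFEB, a regulator of lysosome genes, at 7.79 and 3.27 TPM (-1.04). The lower count was 2 after centring, after rescaling, in GC bins and with a pseudocount of 5. USF2 was at 128 and 117 TPM (-0.13), chosen after its values were seen.

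Of the transcripts listed with the MYC family genes by name or region, 3 were tested. Their distances from those genes were not measured. PVT1, the long noncoding RNA next to MYC, was at 52.5 TPM in shCON and 22.0 with shEIF3F (log2 ratio -1.22, or -0.86 relative to all genes), a smaller difference than that of MYC (-2.60). MYCBP was at 13.2 and 8.24 TPM (-0.62) and PCAT1 at 1.29 and 0.78 TPM (-0.36), both within 2-fold. CASC11 and the MYCN antisense transcripts MYCNOS and MYCNUT were listed at 0 in both libraries.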
